A study of Mus musculus with 20 samples.

Results

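The unfolded protein response is the programme by which cells match the folding capacity of the endoplasmic reticulum (ER) to the load of secreted and membrane proteins. The ER chaperone Hspa5 (BiP) holds 3 membrane sensors inactive, and when unfolded proteins draw it away the kinase and ribonuclease Ern1 splices Xbp1 mRNA, the kinase Eif2ak3 slows translation and favours Atf4, and Atf6 is cut to release a transcription factor. Goblet cells, gland cells and plasma cells of the airway secrete large amounts of protein and are known for a high basal activity of this programme.

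The genes described here were 10 members of this response: the chaperones Hspa5 and Hsp90b1, the co-chaperone Dnajb9, the disulphide isomerase Pdia4, the oxidases Ero1a and Ero1b that recharge such isomerases, and the transcription factors Xbp1, Atf4, Ddit3 and Creb3l1. Members were taken by gene name, including the older names Ero1l and Ero1lb on the array, and had 16 of the 41174 probes. Of these, 15 passed the filter for low signal (the software classed the spot as well above background on 10 or more of 20 arrays) and were tested, among 26064 probes tested in all. The exception was Ero1b probe 2 (A_51_P354642), which was well above background on 0 arrays.

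Whole tracheas came from adult mice of 4 months by the labels, 5 in each of 4 groups: wild-type and Myd88KO mice, either uninjured or collected 3 days after 2% polidocanol, a detergent that strips the tracheal epithelium. All mice were of the C57/Bl6 strain by the labels. The knockout line lacks the adaptor Myd88 in all cells and was backcrossed to C57/Bl6JOlaHsd, but it was bred by crossing knockouts with one another while the wild-type mice were a separate colony, so that the genotype and the colony cannot be told apart. Both sexes were used in the study, and the sex of single samples was not given in the labels. Each trachea was hybridised to 1 one-colour array, and levels are given as log2 intensity minus the 75th percentile of the array. Because the tissue was bulk, fewer cells of a type and less RNA per cell cannot be told apart.

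The arrays shared 5 slides, with 1 array of each group and 1 replicate number on every slide, and numbers 2, 3 and 4 were scanned on 1 day and numbers 1 and 5 on another. Arrays of 1 group correlated at 0.925 to 0.990. Markers of tracheal secretory (8 genes), basal (6 genes), ciliated (8 genes) and cartilage cells (8 genes) all had tested probes. So did 5 of 6 thyroid genes and 7 of 7 skeletal muscle genes, tissues that lie next to the trachea. The Myd88 probe differed by −0.21 between the uninjured groups (adjusted p = 1) and by −0.77 between the injured groups (adjusted p = 0.00824 by limma). Its mean level was 1.86 in uninjured and 1.89 in injured Myd88KO tracheas, beside 2.08 and 2.65 in wild-type tracheas. The probe thus kept a high level in Myd88KO tracheas, and the genotype rests on the labels.

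The regulatory sequence of Hspa5 is shown first, because it holds the element through which spliced Xbp1 and cleaved Atf6 are known to act on ER chaperone genes. Capitals mark the exact match to the ER stress response element in the 200 bases before the start of the gene (RefSeq, GRCm38.p6, chr2:34771890-34772089, plus strand, 5′ to 3′). Inexact copies of the element were not searched for and are not marked.
Hspa5: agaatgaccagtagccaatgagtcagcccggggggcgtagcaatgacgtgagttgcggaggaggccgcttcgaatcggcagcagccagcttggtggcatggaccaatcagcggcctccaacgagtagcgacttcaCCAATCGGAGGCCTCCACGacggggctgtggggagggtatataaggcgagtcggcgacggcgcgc

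RefSeq promoters, from 250 bases before to 50 bases after a gene's start, were at hand for 9 of the 10 members, the exception being Creb3l1. They were searched on both strands for 4 elements: ERSE (CCAAT, 9 bases of any kind, CCACG), ERSE-II (ATTGG, 1 base, CCACG), UPRE (TGACGTGG) and the ATF4-type element CARE (TGATG, 1 base, AAT). ERSE and ERSE-II share the letters CCACG. Exact matches were found in 3 of the 9 members, Hspa5, Ero1b and Hsp90b1, and all of them were ERSE, which 0.119% of the 32851 mouse promoters of this length held. The shares for ERSE-II, UPRE and CARE were 0.0365%, 0.676% and 0.965%. The members were chosen as genes of this response, and the element is known from ER chaperone genes. These shares therefore do not measure an enrichment among the members. The element lay at −65 to −47 in Hspa5, at −201 to −183 in Ero1b (on the reverse strand), and at both −212 to −194 and −107 to −89 in Hsp90b1, counting −1 as the base before the start. The matches of Ero1b and Hsp90b1 are printed below with 15 bases on either side, to set them beside that of Hspa5, and elements in capitals that begin with CGTGG are read from the reverse strand. They lie at chr13:12565667-12565715 (plus strand) for Ero1b, and at chr10:86705623-86705671 and chr10:86705518-86705566 (minus strand) for Hsp90b1.
Ero1b: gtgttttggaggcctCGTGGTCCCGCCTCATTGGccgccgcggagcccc
Hsp90b1, distal: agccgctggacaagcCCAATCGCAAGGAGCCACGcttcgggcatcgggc
Hsp90b1, proximal: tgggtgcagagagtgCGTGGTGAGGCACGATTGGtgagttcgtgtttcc

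Ero1b was the only member with a called difference between genotypes, and in only 1 of its 2 measured probes. The study had already listed Ero1b among the genes lower in uninjured Myd88KO tracheas on these same arrays. Ero1b is the ER oxidase best known from secretory cells such as those of the pancreas and stomach. Its probe 1 (A_52_P603836) and probe 3 (A_52_P424462) lie on chromosome 13 from 12553915 to 12553974 and from 12556181 to 12556240, as the files give positions without stating the genome build. In uninjured wild-type tracheas the level of probe 1 was −0.24, −0.25, −0.96, 0.32 and −0.30 on arrays 1 to 5. In uninjured Myd88KO tracheas it was −3.77, −2.52, −2.53, −3.03 and −3.82. The groups did not overlap (as for 2.51% of all tested probes), and probe 1 remained well above background on all 5 arrays of every group. The difference was −2.85 (SE 0.28, adjusted p = 6.03e-06 by limma), a level 7.21-fold lower in Myd88KO tracheas. It was −2.11 with normexp background correction, still called. The call was lost in a one-way test after adjustment (adjusted p = 0.0163). That test took the compared groups alone, with the scaling and filter used here, and was not a rerun of the study's own analysis.

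The injured groups, which had separate mice, gave the same measurement again. The level of Ero1b probe 1 was −0.85, −0.37, −1.04, −0.32 and −0.13 on injured wild-type arrays. On injured Myd88KO arrays it was −3.19, −3.51, −3.96, −3.34 and −3.92. The groups again did not overlap (as for 1.96% of all tested probes), with a difference of −3.04 (SE 0.28, 8.25-fold, adjusted p = 2.29e-06 by limma), or −2.16 with normexp background correction. Within slides the Myd88KO array was lower on 5 of 5 slides in both states, by −3.53 to −1.58 before injury and by −3.79 to −2.34 after it. Injury itself left probe 1 without a called difference, at −0.26 in wild-type (95% interval −0.85 to 0.34) and −0.45 in Myd88KO tracheas (−1.04 to 0.14).

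Probe 3 of the same gene was not called between genotypes. It was −0.83, −0.14, −0.44, 0.99 and −0.66 on uninjured wild-type arrays and −0.99, 1.37, 1.34, 0.53 and −1.16 on uninjured Myd88KO arrays, and the ranges overlapped. The difference was 0.44 (95% interval −0.50 to 1.37, adjusted p = 1 by limma). In injured tracheas probe 3 ran from −0.97 to −0.03 in wild-type and from −0.52 to 0.22 in Myd88KO mice, a difference of 0.19 (−0.74 to 1.13).

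The 2 probes were then set against each other on every array. Probe 1 minus probe 3 was −0.67 to 0.58 in uninjured wild-type and −3.89 to −2.66 in uninjured Myd88KO tracheas, and −0.28 to 0.04 in injured wild-type and −3.56 to −2.67 in injured Myd88KO tracheas. The mean of this log2 ratio differed between genotypes by −3.29 before and −3.24 after injury. Injury moved it by −0.01 in wild-type and 0.04 in Myd88KO tracheas. The comparison of the probes was made after the difference of probe 1 was known and is given as a description, without a test. Which of the 2 probes follows the gene was not tested, and where the probes fall in the transcript was not analysed here.

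Markers of secreting cells were set beside the genotype difference of Ero1b probe 1. The summed log2 level of the 6 goblet cell markers on the array ran from 7.76 to 9.003 in uninjured wild-type and from 8.85 to 9.57 in uninjured Myd88KO tracheas, and from 7.32 to 8.75 and 8.27 to 9.21 after injury. That of 8 plasma cell markers ran from 3.19 to 4.86 and from 2.94 to 3.45 in the uninjured groups, and from 2.79 to 3.87 and 3.04 to 3.81 in the injured groups. Between the uninjured groups 0 genes of either list were called by limma. An unadjusted p under 0.05 was found for 3 of 6 goblet and 3 of 8 plasma cell probes (all tested probes, 5.59%). The median difference was 0.58 for goblet and −0.75 for plasma cell probes. The gland and secretory lists had 0 of 9 and 0 of 8 probes at this level in the same comparison. Between the injured groups 1 of the 6 goblet genes was higher in Myd88KO tracheas, where 0.38% of all tested probes were called. The part of these cells in the level of Ero1b was not tested.

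**Figure D1:**
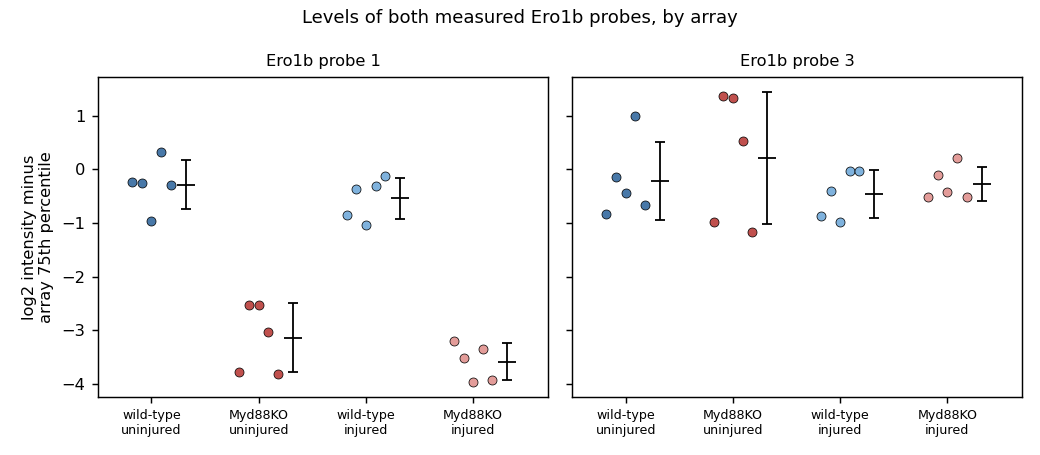
Levels of Ero1b probe 1 (left) and probe 3 (right) on every array (log2 intensity minus the array's 75th percentile, points) in the 4 groups, with group mean and SD (bars, n = 5). Probe 1 lies at −3.96 to −2.52 in the 10 Myd88KO arrays and at −1.04 to 0.32 in the 10 wild-type arrays, whereas the groups overlap for probe 3.

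No neighbour of Ero1b on the chromosome was called. Within 2 Mb on either side, 30 probes of 23 genes were tested between the uninjured groups, those of Ero1b included. Ero1b probe 1 was the 1 probe called (3.33%, beside 0.384% of all tested probes), and 0 probes of other genes were. The window was drawn around Ero1b with its published fall known, so this share does not describe the region. The probes nearest to the threshold were 3 of Ggps1, which makes geranylgeranyl diphosphate and is named after its values were seen. All 3 were lower in uninjured Myd88KO tracheas, with adjusted p values of 0.0316, 0.0899 and 0.153 by limma. Between the injured groups these were 0.231, 0.753 and 0.518. The 2 probes of Lgals8, also named after its values were seen, went the other way in uninjured tracheas (0.45 and 0.50, adjusted p = 0.383 and 0.49). Genes whose levels followed Ero1b probe 1 most closely over the 20 arrays were Rnf41 (r = 0.94), Trim16 (0.94), Txnl4a (0.94), Rprd1b (0.94) and Rab6a (0.93). Each of these was itself lower in Myd88KO tracheas in both states, at an adjusted p of 2.67e-05 or below before injury and 3.46e-05 or below after it. Rnf41, a ubiquitin ligase, differed by −2.01 and −2.54, and Rab6a, a GTPase of Golgi traffic, by −1.37 and −1.34. On the Myd88KO arrays of both states Trim16 was not well above background, and it passed the filter through the wild-type arrays. These correlations over 20 arrays therefore share the gap between genotypes, and no member was among the genes most like Ero1b probe 1.

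Probe 3 followed other genes. Over the 20 arrays it correlated most with Fam189a2 (r = 0.95), Pde4dip (0.92), Parm1 (0.91), Clstn2 (0.89) and Olfr446 (0.89), genes named after their values were seen. Among members it ran closest to Dnajb9 probe 2 (0.76) and Hspa5 (0.65), whereas for probe 1 the correlation with Hspa5 was 0.08. Probe 3 was highest on array 4 of the uninjured wild-type group and on arrays 2, 3 and 4 of the uninjured Myd88KO group.

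No other member was called between genotypes. Of the 15 tested member probes, 1 was called between the uninjured groups, where 0.384% of all tested probes were (0.196% as lower in Myd88KO), and 1 between the injured groups, where 0.38% were (0.23% as lower). Both calls were of Ero1b, which was a member with its published fall on these arrays known. The shares therefore do not measure how unusual its call was. The median difference over the member probes was 0.08 uninjured and 0.03 injured, beside 0.04 and −0.03 over all tested probes. At an unadjusted p under 0.05 there was 1 member probe between the uninjured groups (all probes, 5.59%) and 3 between the injured groups, 1 each of Ero1b, Ero1a and Ddit3 (all probes, 12.5%).

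**Figure D2:**
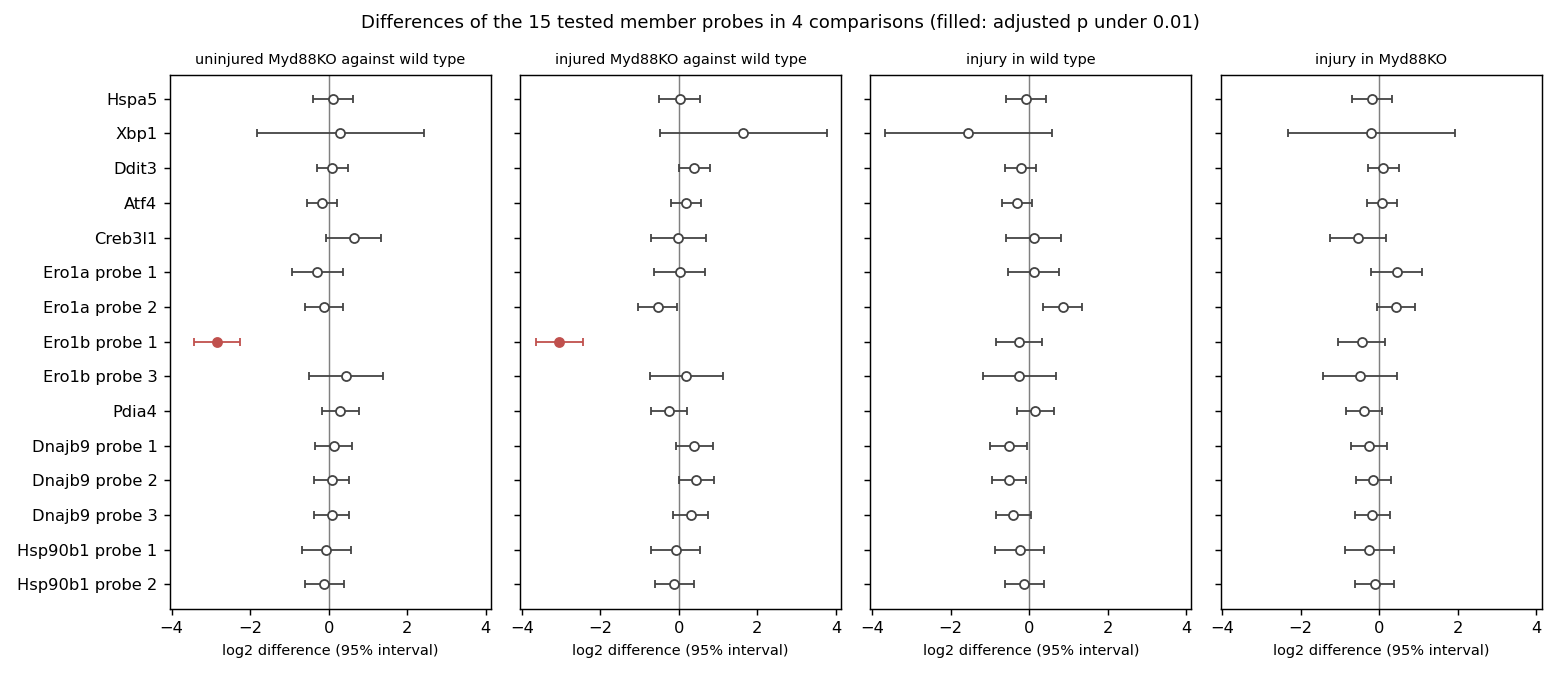
Log2 differences of the 15 tested member probes in 4 comparisons (points) with 95% intervals from limma (bars); filled points passed an adjusted p of 0.01. Ero1b probe 1, at −2.85 and −3.04 between genotypes, is the 1 filled probe, and the wide intervals of Xbp1 come from 1 spot at −5.39.

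No chaperone passed the test between genotypes or with injury. Hspa5 (A_51_P395098; chromosome 2, 34783421 to 34783480) was 5.63, 5.73, 5.82, 5.82 and 5.34 on uninjured wild-type arrays and 5.35, 6.30, 6.43, 5.45 and 5.37 on uninjured Myd88KO arrays. Arrays 2 and 3 of the Myd88KO group were the highest of these 10, and the other 3 lay among the wild-type arrays. The difference of 0.11 had a 95% interval of −0.40 to 0.62 (adjusted p = 1 by limma). After injury Hspa5 was 5.84, 5.55, 5.44, 5.31 and 5.79 in wild-type and 5.40, 6.03, 4.91, 6.15 and 5.54 in Myd88KO tracheas, so that the Myd88KO arrays held both the lowest and the highest values. The difference between injured groups was 0.02 (−0.49 to 0.53), and injury changed Hspa5 by −0.08 (−0.60 to 0.43) in wild-type and −0.18 (−0.69 to 0.34) in Myd88KO tracheas.

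Hsp90b1 (Grp94), the ER member of the Hsp90 family, had 2 probes. In the comparison of genotypes their differences were −0.07 and −0.12 uninjured and −0.08 and −0.11 injured, and with injury they were −0.24 and −0.12 in wild-type and −0.26 and −0.12 in Myd88KO tracheas, with every 95% interval including 0. Array 4 of the injured wild-type group was the lowest of its group for both probes, at 4.71 and 4.14. Pdia4, which forms and rearranges disulphide bonds, differed by 0.30 uninjured (95% interval −0.16 to 0.76) and −0.25 injured (−0.71 to 0.22).

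The levels of Hspa5 moved most closely with 4 other ER genes from array to array. The 4 genes most like Hspa5 were Creld2 (r = 0.91 over 19 arrays, since 1 spot was marked as an outlier), Manf (0.86 over 20 arrays), Dnajb11 (0.82) and Pdia6 (0.82). Creld2 and Manf are secreted proteins induced by ER stress, Dnajb11 is a co-chaperone of Hspa5 and Pdia6 is a disulphide isomerase. They had ranks 1 to 4 among all tested probes. The probes of the other members followed Hspa5 less closely, from r = 0.08 (Ero1b probe 1) to 0.65 (Ero1b probe 3). Those of the ER chaperone Hsp90b1 gave 0.18 and 0.48, and Pdia4 gave 0.54. These values share their arrays and the scaling of each array, and the correlation describes these 20 arrays. Manf was 4.25 and 4.35 on arrays 2 and 3 of the uninjured Myd88KO group, the highest of the 20, and 2.72 on array 3 of the injured Myd88KO group, the lowest, as was the case for Hspa5.

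Promoters were at hand for 3 of these 4 genes, Creld2, Dnajb11 and Pdia6, and each held a match, an ERSE in Creld2 and Pdia6 and an ERSE-II just past the start in Dnajb11. The matches before the start are shown to be read beside that of Hspa5, with capitals as above, at chr15:88819505-88819553 and chr12:17266476-17266524, both on the plus strand.
Creld2: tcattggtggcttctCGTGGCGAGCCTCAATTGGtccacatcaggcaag
Pdia6: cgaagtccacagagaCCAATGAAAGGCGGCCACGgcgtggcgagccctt

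**Figure D3:**
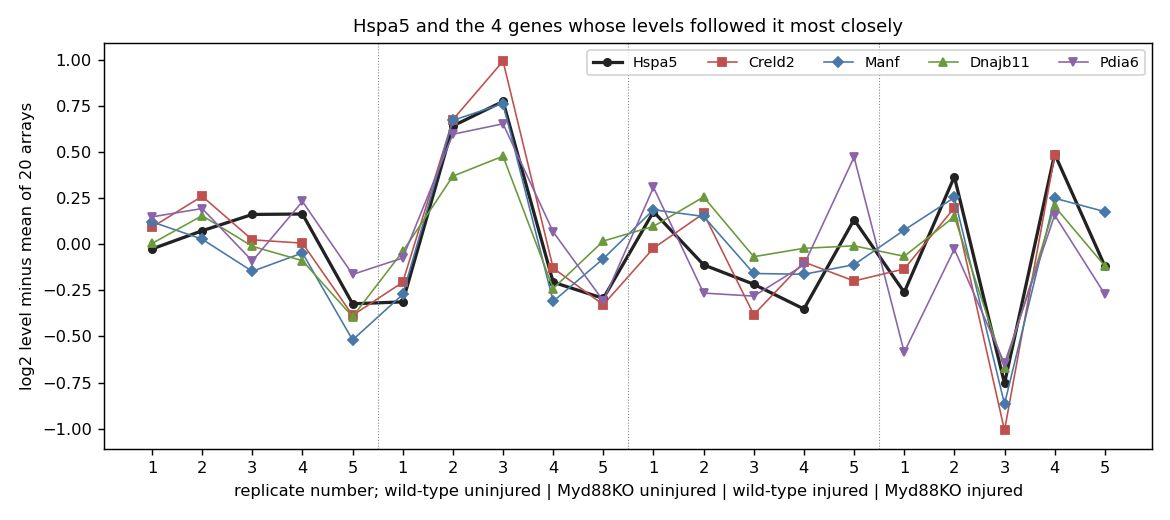
Level of Hspa5 and of the 4 genes most like it on each of the 20 arrays (log2, each gene relative to its own mean over the arrays), ordered by group and replicate number. Uninjured Myd88KO arrays 2 and 3 are high and injured Myd88KO array 3 is low for the genes drawn; Creld2 has no value on injured Myd88KO array 5.

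Thyroid markers were high on the pair of arrays with the highest Hspa5, but not on the next. On uninjured Myd88KO arrays 2 and 3 the summed level of 6 thyroid markers, a list singled out here after its values were seen, was 8.54 and 8.88 on the log2 scale, the highest of the 10 uninjured arrays, which ran from 6.43 to 8.88. In the other groups the sum ran from 6.57 to 8.48 in uninjured wild-type, 6.96 to 8.65 in injured wild-type and 6.59 to 7.77 in injured Myd88KO tracheas. On injured Myd88KO arrays 4 and 2, which followed in Hspa5 (6.15 and 6.03), it was 7.77 and 7.30, and on uninjured wild-type array 5, the lowest of its group in Hspa5 (5.34), it was 8.29. On injured wild-type array 5 the thyroid sum was 8.65, in a group whose Hspa5 reached at most 5.84. Nor was the thyroid list alone in this. The summed smooth muscle markers were 8.51 and 8.56 on uninjured Myd88KO arrays 2 and 3, also the highest of the 10 uninjured arrays. On injured Myd88KO array 4 they were 8.01. Of the 6 thyroid markers Slc5a5 was not tested. Ero1b probe 3 was highest on uninjured wild-type array 4 and uninjured Myd88KO arrays 2, 3 and 4. There the thyroid sum was 8.48, 8.54, 8.88 and 8.21. On uninjured wild-type arrays 1 and 5, the lowest of their group for probe 3, it was 8.01 and 8.29. The part of thyroid tissue or smooth muscle in the levels of Hspa5 and Ero1b probe 3 was not tested.

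Dnajb9 (ERdj4), a co-chaperone that feeds substrates to degradation and holds Ern1 inactive, was measured by 3 probes. Probe 1 was 1.26, 1.49, 0.84, 1.76 and 1.51 in uninjured wild-type and 1.22, 0.82, 0.60, 0.82 and 0.81 in injured wild-type tracheas. The groups overlapped at array 3 of the uninjured and array 1 of the injured group. After injury in wild-type mice the 3 probes differed by −0.52, −0.51 and −0.40, each lower on 5 of 5 slides, with unadjusted p values of 0.0314, 0.0264 and 0.0807 (adjusted p = 0.14, 0.126 and 0.254 by limma), so that none passed the threshold. In Myd88KO tracheas the differences were −0.26, −0.15 and −0.17, lower on 2 or 3 of 5 slides, and the difference between the responses was 0.26, 0.36 and 0.23 (adjusted p = 0.79, 0.678 and 0.816).

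Ero1a, the ubiquitous ER oxidase, came nearest to a response to injury. Its probe 2 (A_52_P423424) was −0.66, −0.99, −0.44, −1.04 and −0.77 in uninjured wild-type tracheas. In injured wild-type tracheas it was 0.16, −0.004, −0.01, −0.21 and 0.46, all above the uninjured values and higher on 5 of 5 slides. Groups did not overlap in this comparison for 12.6% of all tested probes. The difference was 0.86 (SE 0.24, 1.81-fold), with an adjusted p of 0.0214 by limma, which missed the threshold of 0.01. With the 2 groups of this comparison fitted alone it passed (adjusted p = 0.0069), as it did with array weights (0.00247).

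In Myd88KO tracheas probe 2 of Ero1a was −0.68, −0.97, −0.93, −0.99 and −0.92 uninjured and −0.74, 0.14, −0.75, 0.30 and −1.28 injured. Of the 5 injured arrays, 2 were as high as the injured wild-type arrays and 3 were not. The difference was 0.43 (95% interval −0.06 to 0.92, adjusted p = 0.326), and the responses of the genotypes differed by −0.42 (−1.12 to 0.27, adjusted p = 0.656 by limma). The injured groups differed by −0.54 (unadjusted p = 0.0323, adjusted p = 0.341). Probe 1 of Ero1a, which was dimmer and well above background on 19 arrays, differed with injury by 0.12 in wild-type (95% interval −0.53 to 0.77) and 0.44 in Myd88KO tracheas (−0.21 to 1.09).

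Of the transcription factors none was called. Ddit3 (CHOP), the factor linked to cell death under lasting ER stress, was −0.30, −1.22, −0.76, −0.64 and −0.45 in injured wild-type and −0.56, −0.23, −0.56, −0.32 and 0.29 in injured Myd88KO tracheas. These groups overlapped, with array 2 of the wild-type group lowest and array 5 of the Myd88KO group highest. The difference was 0.40 (SE 0.19), at an unadjusted p of 0.0485 and an adjusted p of 0.397 by limma. Atf4, which activates Ddit3 and genes of amino acid supply, differed by −0.17 and 0.19 between genotypes in uninjured and injured tracheas and by −0.30 and 0.06 with injury in wild-type and Myd88KO mice, with every 95% interval including 0.

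Creb3l1 (OASIS), a membrane-bound factor known from cells that secrete matrix, was −2.40, −1.86, −1.75, −1.99 and −1.97 in uninjured wild-type and −2.07, −1.17, −0.66, −1.07 and −1.83 in uninjured Myd88KO tracheas. Myd88KO arrays 2, 3 and 4 were the highest of these 10, and arrays 1 and 5, scanned on the other day, lay among the wild-type values. The difference was 0.64 (95% interval −0.07 to 1.34, adjusted p = 0.962 by limma), higher on 5 of 5 slides. With injury Creb3l1 differed by −0.54 in Myd88KO tracheas (−1.24 to 0.17, lower on 5 of 5 slides) and by 0.12 in wild-type tracheas (−0.59 to 0.82). The difference between these responses was −0.65 (−1.65 to 0.34, adjusted p = 0.628).

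Xbp1, whose spliced form drives chaperone and degradation genes, had 1 value that stood far from the rest. On injured wild-type array 2 it was −5.39 (processed intensity 20.9, not well above background), whereas the other 4 arrays of the group gave 2.31, 2.14, 2.30 and 1.85. The other 3 groups ran from 1.88 to 2.61 (uninjured wild-type), 1.56 to 3.17 (uninjured Myd88KO) and 1.31 to 2.86 (injured Myd88KO). The software had not marked this spot as an outlier. A single array at least 5 log2 units below the other 19 was found for 22 of the tested probes, and in 21 of them the array was this one. With the spot, Xbp1 differed by −1.54 with injury in wild-type (SE 1.02, adjusted p = 0.355) and by 1.64 between injured groups (adjusted p = 0.535). Without the spot, a choice made after the data were seen, these were −0.04 and 0.13, and the difference between the responses was −0.16 in place of 1.35. An array that does not separate spliced from unspliced mRNA measures the level of Xbp1 and not its activation.

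Over all members, injury gave 0 called probes of 15 in either genotype by limma, where 5.26% of all tested probes were called in wild-type and 0.376% in Myd88KO tracheas. At an unadjusted p under 0.05 there were 3 member probes in wild-type (2 of Dnajb9 and 1 of Ero1a; all probes, 26.4%) and 0 in Myd88KO tracheas (19.5%). The median difference was −0.24 in wild-type and −0.18 in Myd88KO tracheas, beside 0.00 and −0.07 over all tested probes, and 11 of the 15 probes were below 0 in each. These comparisons share no arrays with each other. Within each, Dnajb9, Hsp90b1, Ero1a and Ero1b had several probes and all probes share their arrays, so the 15 probes are not independent. The difference between the injury responses gave 0 called member probes and 0 at an unadjusted p under 0.05, beside 0 called (0%) and 10.4% over all probes.

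The wider pathway was followed in 87 further genes of ER sensing, folding, degradation, translocation and the ATF4 programme. Of these, 86 had tested probes, the exception being the protease Mbtps2, and 3 genes passed the threshold, all of them higher in injured than in uninjured wild-type tracheas. That was 1.99% of their 151 probes, where 3.24% of all tested probes were called higher. None was called in the other 4 comparisons by limma. An unadjusted p under 0.05 was found for 12 of the 151 probes between the uninjured groups (7.95%, beside 5.59% of all tested probes) and for 27 between the injured groups (17.9%, beside 12.5%). It was found for 32 with injury in wild-type (21.2%, beside 26.4%), for 24 with injury in Myd88KO tracheas (15.9%, beside 19.5%) and for 23 in the difference between the responses (15.2%, beside 10.4%). At the level of the lists, 1 of 11 oxidative folding genes, 1 of 14 ATF4 targets and 1 of 23 translocation and export genes rose, and 0 of 13 chaperones, 0 of 15 degradation genes, 0 of 4 Creb3 family genes and 0 of 6 tested sensor genes passed in either direction by limma. With injury in wild-type, these last 4 lists had 2 of 25, 5 of 26, 0 of 6 and 0 of 9 probes at an unadjusted p under 0.05, and with injury in Myd88KO tracheas 6, 4, 2 and 2. Between the uninjured groups the counts were 3, 3, 1 and 1, between the injured groups 4, 7, 0 and 0, and for the difference between the responses 0, 5, 0 and 1. The median difference of all 151 probes with injury was 0.07 in wild-type and −0.15 in Myd88KO tracheas.

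Prdx4, the ER peroxidase that uses the hydrogen peroxide made by Ero1 oxidases, was 3.29, 2.95, 2.44, 2.64 and 3.09 in uninjured and 3.65, 3.91, 3.61, 3.86 and 3.65 in injured wild-type tracheas, with no overlap (as for 12.6% of all tested probes). It rose by 0.86 (SE 0.16, 1.81-fold, adjusted p = 0.00214 by limma). In Myd88KO tracheas it was 2.98 to 3.28 uninjured and 2.86 to 3.60 injured, a difference of 0.16 (95% interval −0.17 to 0.50). Mthfd2, a mitochondrial folate enzyme under the control of Atf4, rose by 0.97 in wild-type tracheas (SE 0.22, 1.95-fold, adjusted p = 0.00769) and differed by 0.48 in Myd88KO tracheas (0.01 to 0.94, adjusted p = 0.243). Kdelr2, the receptor that returns escaped ER chaperones from the Golgi, rose by 0.70 in wild-type tracheas (SE 0.17, 1.63-fold, adjusted p = 0.00925) and differed by 0.05 in Myd88KO tracheas (−0.30 to 0.39). As no probe was called for the difference between the responses, these 3 genes were not shown to respond differently in the 2 genotypes.

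**Figure D4:**
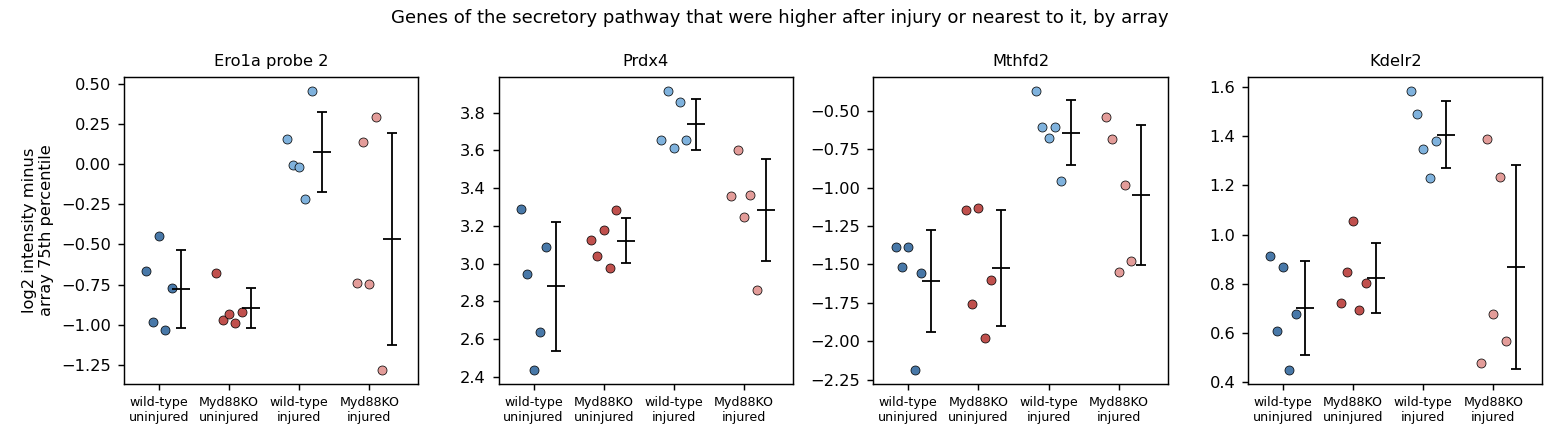
Levels of Ero1a probe 2, Prdx4, Mthfd2 and Kdelr2 on every array (log2 intensity minus the array's 75th percentile, points; each panel has its own scale) in the 4 groups, with group mean and SD (bars, n = 5). Injured wild-type arrays lie above uninjured wild-type arrays in all 4 panels (these groups did not overlap for 12.6% of all tested probes). Of the 5 injured Myd88KO arrays 2 lie within the injured wild-type range for Ero1a, Mthfd2 and Kdelr2 and 0 for Prdx4.

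Marker genes of several cell types were called in the same comparison. In injured wild-type tracheas 5 of 9 myeloid genes and 6 of 8 proliferation genes rose, and 3 of 8 secretory genes, 3 of 8 ciliated genes, 3 of 7 tested plasma cell genes, 1 of 6 goblet genes and 1 of 6 gland genes fell. Over all tested probes 3.24% were called higher, and 528 of 26064 were called lower. None of the basal, fibroblast, cartilage, smooth muscle, skeletal muscle, thyroid and white adipocyte genes was called. The summed level of the plasma cell list ran from 3.19 to 4.86 in uninjured and from 2.79 to 3.87 in injured wild-type tracheas, and that of the secretory list from 10.8 to 11.6 and from 9.58 to 10.5. The myeloid list ran from 8.23 to 9.06 and from 8.46 to 9.38. In the plasma cell list Cd79a was not tested. The part of these cell types in the levels of Dnajb9, Ero1a, Prdx4, Mthfd2 and Kdelr2 was not tested.

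No sensor passed the test. Ern1 differed by 0.19 and −0.35 between genotypes in uninjured and injured tracheas (adjusted p = 1 and 0.458), and by 0.19 and −0.34 with injury in wild-type and Myd88KO mice (adjusted p = 0.554 and 0.324). Eif2ak3 was 0.14 to 0.54 in uninjured wild-type and 0.57 to 0.81 in uninjured Myd88KO tracheas, with no overlap (as for 2.51% of all tested probes). Its difference of 0.29 had an unadjusted p of 0.0372 and an adjusted p of 0.821. With injury Eif2ak3 differed by −0.13 and −0.21. The 2 probes of Atf6 differed by −0.16 and 0.23 with injury in wild-type and by −0.29 and 0.05 in Myd88KO tracheas, with every 95% interval including 0.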

How the data were processed

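Total RNA of 20 tracheas was labelled and hybridised to one-colour whole mouse genome arrays. The authors deposited, per array, the intensity of each spot as background-subtracted and spatially detrended by Agilent Feature Extraction (version 9.5.1.1 in the file headers), not scaled between arrays, and a table of the same values. Here, control spots and spots marked as outliers were left out, log2 intensities of 1 probe were averaged, and each array's 75th percentile was subtracted. Probes well above background on at least 10 arrays were tested with limma 3.58.1 in R 4.3.3 on all 20 arrays, with Benjamini-Hochberg adjustment within each contrast, and called at an adjusted p under 0.01. The test was tested on simulated data. Groups came from the sample titles. With 5 arrays a group, their number limits the precision, and litter or batch was not given in the labels.

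The members and lists were chosen with earlier results of these data known. Named were all member probes, called genes of the pathway lists, 3 sensors, called neighbours of Ero1b (there were none), and the 5 genes most like Hspa5 and Ero1b, of which 1 is not reported here. Alternatives covered background correction, scaling, filters, slide, scan day, weights, the groups fitted, a one-way test and leaving out each array. The one-way test was named in the methods, but here it was an equal-variance test of the compared groups alone, outside the authors' software. The replicate number marks the slide, by the file headers. Residuals of same-numbered arrays had a median correlation of 0.24 (−0.26 to 0.48 over 30 pairs). No probe sequences were used, and the mouse gene table (GRCm38.p6) served for names and promoters.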

Additional observations from a re-analysis of the deposited data

Results flagged for a closer look

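Within groups of 5 arrays, 4 values of member probes lay far from the other 4 of their group, by a gap of over 0.71 of the group's range. With 64 groups examined, chance gives about 3.2. On injured wild-type array 2, Xbp1 was −5.39, with the nearest array at 1.85. On injured Myd88KO array 1, Atf4 was −0.20, with the nearest at 0.58. On the same array Creb3l1 was −3.36, with the nearest at −1.84. On uninjured Myd88KO array 1, Ero1a probe 2 was −0.68, with the nearest at −0.92.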

How the results depend on the processing

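The slide held 1 array of each group under 1 replicate number. With this replicate block the number of member probes called was 1, 1, 0, 0 and 0 for uninjured genotypes, injured genotypes, injury in wild-type, injury in Myd88KO and the difference between the responses, as without it, so that the block changed no call. In the check of the pairing, 23 of 30 same-numbered pairs correlated above 0.1 and 15 matched their own number best.

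Ero1b probe 1 lost its call between uninjured groups in the one-way test of these groups after adjustment (0 member probes called, adjusted p = 0.0163). It kept the call in the other 10 alternatives (−2.90 to −2.11) and with each array left out (−3.02 to −2.68). Between injured groups it was called in all 11 alternatives (−3.04 to −2.16). With injury in wild-type, 1 member probe, Ero1a probe 2, was called with array weights, with the compared groups alone and in the one-way test without adjustment. With each array left out its difference was 0.76 to 0.94 (adjusted p 0.019 to 0.0588). Dnajb9 probe 1 ranged from −0.67 to −0.45 (adjusted p 0.0351 to 0.237) over 11 alternatives. Of 75 single differences, 43 were smaller than their standard error, and 23 of these turned sign in an alternative with 0 of them called in any. Why these values moved was not tested.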
